A study of Arabidopsis thaliana and Ginkgo biloba and Brassica rapa with 14 samples.

Results

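The glutamate tRNAs were the 4 isodecoders whose name begins with Glu, out of 100 tRNA consensus sequences of Arabidopsis thaliana. They stood for 27 of the 687 listed tRNA genes and for 8 of the 59 cytosines listed with 5-methylcytosine (m5C). Glu(CTC) and Glu(TTC) were encoded in the nucleus, and another Glu(TTC) was encoded in the chloroplast. A last Glu(TTC) consensus was listed for a mitochondrial gene and for a gene on a nuclear chromosome, so that its origin was mixed. Here a sequence shared by genomes means a consensus listed for genes in each of them. Whether such genes are identical in sequence was not tested. All sequences that the naming rule takes were kept, and the rule itself uses no measured value. An isodecoder is used here as in the deposited lists, for a consensus sequence with a given anticodon and a given genomic origin.

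The study mapped m5C across plants by RNA bisulfite sequencing (RBS-seq), in which unmethylated cytosines are read as thymine and m5C is read as cytosine. It treats its sites as candidates, because some other modified cytosines can also resist the conversion. Methylation here means the share of reads with cytosine at a site. Gel purified RNA came from wild type (Columbia) A. thaliana seedlings at 10 days, and from B. rapa and G. biloba, the flag leaf of durum wheat (T. durum), fronds of the green alga C. taxifolia and cells of the alga N. oculata. The A. thaliana methylation values were the authors' means of 3 libraries, whereas each of the other 5 species had 1 library, so that no spread between replicates could be computed for any value. Abundances were RPM (reads of a sequence per 1000000 reads) from 1 RNA-seq library of A. thaliana. The tables hold tRNAs alone, so the labelled tissues could not be checked against marker genes, and the reads behind each methylation value were not given.

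tRNA-Glu carries glutamate to the ribosome and reads the GAA and GAG codons. The tRNA with the anticodon TTC, written here in DNA letters, reads the codon ending in A and can read the codon ending in G by wobble, and the tRNA with CTC reads the codon ending in G. In chloroplasts tRNA-Glu has a further role, since glutamate bound to it is the starting substrate for 5-aminolevulinic acid and thereby for chlorophyll and heme. Many cytosines at positions 48 to 50, where the variable region meets the T stem, are methylated by the TRM4 (NSUN2) family of RNA methyltransferases. The study also found A. thaliana sites in this region that stayed methylated without TRM4B, and their enzyme was not identified. Position 38 of the anticodon loop is methylated by TRDMT1 (DNMT2) in some tRNAs, among them tRNA-Asp.

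The 4 consensus sequences are shown because the methylated positions differ in base between them. They are written 5′ to 3′ from the reference list, without the CCA end, with capitals for the listed sites. In both nuclear sequences the capitals are C48, C49 and C50. In the chloroplast sequence the capital is C48. In the mixed-origin sequence the capital is position 39, which is a G in A. thaliana and was listed for its cytosine in N. oculata.
Glu(CTC) nuclear: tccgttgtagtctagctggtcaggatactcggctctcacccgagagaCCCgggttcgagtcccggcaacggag
Glu(TTC) nuclear: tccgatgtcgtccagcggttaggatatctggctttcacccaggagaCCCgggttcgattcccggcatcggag
Glu(TTC) mixed origin: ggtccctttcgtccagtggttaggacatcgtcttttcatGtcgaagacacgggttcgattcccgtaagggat
Glu(TTC) chloroplast: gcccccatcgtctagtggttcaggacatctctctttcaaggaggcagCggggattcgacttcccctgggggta

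The nuclear sequences had 22 cytosines in Glu(CTC) and 21 in Glu(TTC), of which 3 each were listed. The chloroplast sequence had 21 cytosines with 1 listed. The mixed-origin sequence had 17 cytosines, none of them listed. Each of the 59 listed sites reached 20% in at least 1 species, so a cytosine outside the list has no value here. Both nuclear sequences also had cytosines at positions 38 and 39 of the anticodon loop and stem, neither of them listed, in contrast to the listed C38 of other tRNAs. At position 38 the mixed-origin sequence had T and the chloroplast sequence had A.

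The nuclear Glu(CTC) and Glu(TTC) were closely alike in the T arm, whose first bases are C49 and C50. Over the alignment 60 of 73 bases were the same (82.2%), and after all cytosines were written as thymines, as bisulfite reads see them, 66 of 73 were the same (90.4%). In the T arm 16 of 17 bases were shared, with the single change G59T, in which the first letter is the base of Glu(CTC), the number is the standard tRNA position counted from the 5′ end, and the last letter is the base of Glu(TTC). In the acceptor stem 12 of 14 bases were shared, and the changes T5A and A68T exchanged both bases of 1 pair. Only 11 of 17 bases of the anticodon arm were shared, with C34T the difference that separates the anticodons.

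The organellar forms were far from the nuclear ones. Identity with the chloroplast Glu(TTC) was 49.3% for nuclear Glu(CTC) and 58.9% for nuclear Glu(TTC), and identity with the mixed-origin form was 59.5% and 68.5%, respectively. The nuclear pair C49 and G65 was replaced by A49 and T65 in the mixed-origin sequence (C49A and G65T), which kept C48 and C50. The chloroplast sequence had G at both positions of the T stem where the nuclear sequences are methylated (C49G and C50G), with C at positions 64 and 65 opposite them (G64C and G65C). The T stem was fully paired in each of the 4 sequences, at 5 of 5 pairs, of which 5 were G-C pairs in each nuclear sequence and 4 in each of the others. Outside the family the nearest sequence to both nuclear members was nuclear Asp(GTC), at 78.1% identity with Glu(CTC) and 72.2% with Glu(TTC).

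The 24 genes of the nuclear isodecoders were spread over all nuclear chromosomes, with no Glu(TTC) of nuclear origin alone on chromosome 2. Coordinates are those of the deposited list, in TAIR10. Glu(CTC) had 13 genes, of which chromosomes 1 and 4 held 4 each, chromosomes 2 and 3 held 2 each and chromosome 5 held 1. Glu(TTC) had 11 genes, of which chromosomes 1, 3 and 5 held 3 each and chromosome 4 held 2. The gap from a nuclear Glu gene to the nearest other listed tRNA gene was 63284.5 bases in the median, from 7710 to 868505 bases, and that neighbour was another Glu gene for 2 of the 24. The closest pair of Glu genes, AT1G75570 and AT1G75650, both Glu(CTC), lay 34422 bases apart on chromosome 1.

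Of the 27 loci, 26 were found in the RefSeq gene table of assembly TAIR10.1, 25 as tRNA genes and with the same coordinates. AT4G01455, listed under Glu(TTC) at 4:611866-611932, was 67 bases long and was annotated there as a pseudogene. A further 4 nuclear loci overlapped the bounds of a protein-coding gene, namely AT3G51135 with AT3G51140, AT5G27715 with AT5G27710, AT5G45715 with AT5G45720 and AT3G05525 with CPA. Strand and exon bounds were not given for these genes.

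Both nuclear glutamate tRNAs were the most abundant nuclear isodecoders of the A. thaliana library. Glu(CTC) reached 627 RPM (95% interval 599 to 656, 1833 reads) and Glu(TTC) 279 RPM (260 to 299, 815 reads), the first and the second of 58 nuclear isodecoders. The other 56 had a median of 2.39 RPM, and the highest of them, Gly(TCC), reached 78.0 RPM. Intervals on RPM in this and the following paragraphs are exact Poisson intervals, and those on ratios are derived from exact binomial intervals on the reads. All of them cover counting error only, since there was 1 library.

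Together the nuclear Glu sequences held 70.7% of the RPM of all sequences listed as nuclear alone (exact 95% binomial interval 69.3 to 72.2), from 24 of 612 nuclear genes (3.92%). Divided by gene number, Glu(CTC) gave 48.2 RPM per gene and Glu(TTC) 25.3 RPM per gene, whereas the other nuclear isodecoders had a median of 0.277 RPM per gene and a highest value of 6.50, again for Gly(TCC). That share depended on which sequences were counted as nuclear. With sequences of mixed origin that include the nucleus added to the total, it was 6.50%. Reads of those sequences cannot be assigned to the nucleus or to an organelle. These values are shares of reads. Nuclear Tyr(GTA), the nuclear isodecoder with the most genes (70), had 1 read in this library. Whether reads follow the amount of each tRNA equally across sequences was not tested.

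Glu(CTC) was 2.25 times as abundant as nuclear Glu(TTC) in RPM (interval 2.07 to 2.45), and 1.90 times as abundant per gene, with 1.18 times as many genes. The mixed-origin Glu(TTC) stood at the other end, at 1.03 RPM (0.212 to 3.00), which corresponds to 3 reads. It was 9th of 11 sequences shared by the nuclear and mitochondrial genomes, whose median was 2.05 RPM. At this depth its level could not be told apart from that of its neighbours in rank.

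The chloroplast Glu(TTC) was the most abundant member, at 4307 RPM (4232 to 4383, 12592 reads). It came 7th of all 100 sequences and 5th of 24 chloroplast sequences, of which the other 23 had a median of 68.4 RPM. It held 82.6% of the RPM of the 4 Glu sequences, and it was 4.76 times (4.56 to 4.96) as abundant as both nuclear forms together. The order was therefore chloroplast Glu(TTC), nuclear Glu(CTC), nuclear Glu(TTC) and mixed-origin Glu(TTC), and the counting intervals of neighbours in this order did not overlap. In RNA from whole tissue, more cells or organelles of a kind and more RNA in each cannot be told apart.

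**Figure D1:**
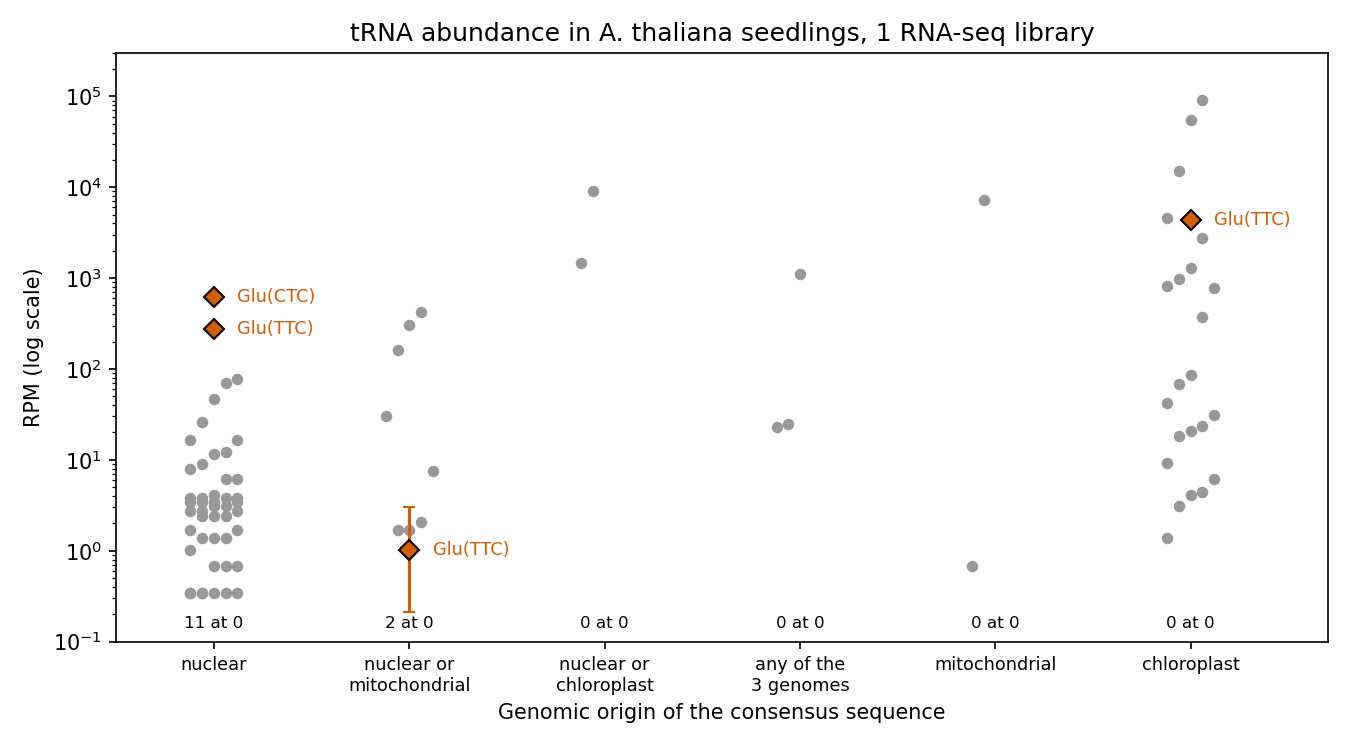
Abundance of the 100 tRNA consensus sequences in the A. thaliana RNA-seq library (RPM, log scale) by genomic origin. Orange diamonds are the Glu sequences with 95% Poisson intervals, grey points are the others, and the number of sequences listed at 0 is given at the foot. The nuclear Glu sequences, at 627 and 279 RPM, lie above all 56 other nuclear isodecoders.

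The RNA-seq reads recovered from RPM steps gave a total of 2923785 reads, of which 579400 were assigned to the tRNA sequences, and 87 of 100 sequences were above 0. Nuclear tRNA was a small part of this library, so the values of most other nuclear isodecoders rest on few reads.

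In both nuclear glutamate tRNAs C49 and C50 were above C48 in every species with values, from 42% to 96% at C49 and C50 and from 0% to 40% at C48. In Glu(CTC), C49 was methylated at 94.3% in A. thaliana, 93% in B. rapa, 96% in T. durum, 89% in N. oculata and 94% in G. biloba. C50 was methylated at 93%, 91%, 93%, 67% and 93% in the same order. C48 of the same tRNA was at 0% in A. thaliana, B. rapa and N. oculata, at 22% in G. biloba and at 40% in T. durum. Glu(CTC) was not determined in C. taxifolia.

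Nuclear Glu(TTC) had values in 4 species and was not determined in N. oculata and G. biloba. C49 was at 93.7% in A. thaliana, 95% in B. rapa, 71% in T. durum and 64% in C. taxifolia. C50 was at 92.7%, 92%, 73% and 42% in the same order. C48 was at 23%, 21%, 40% and 0%, so that the highest C48 value lay below the lowest C50 value across these species. For T. durum the reads of this tRNA were aligned to the A. thaliana consensus and to short and long rice isoforms, and the part of each in these values was not tested.

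**Figure D2:**
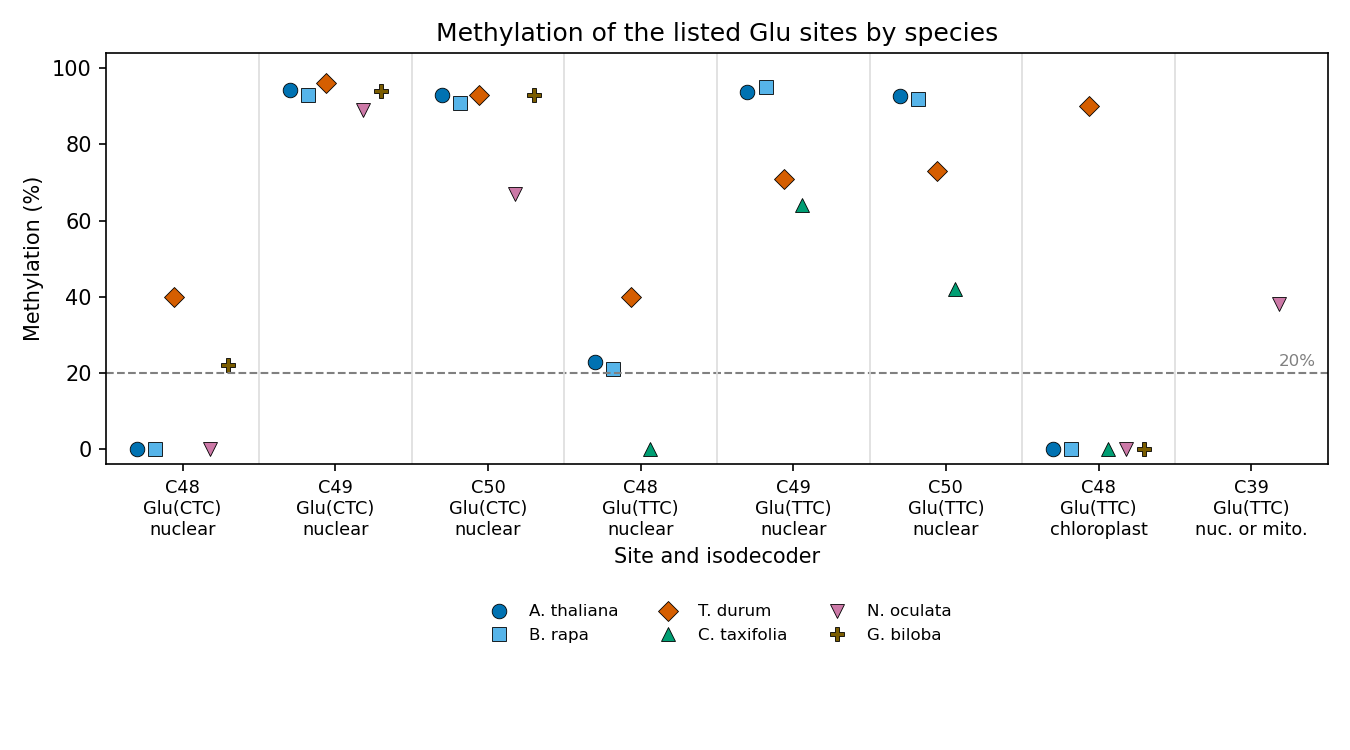
Methylation (%) at the 8 listed Glu sites, with 1 point per species. Points for A. thaliana are the authors' means of 3 libraries, other points are 1 library, a missing point is a species with no value or another base, and the dashed line is the 20% threshold. C49 and C50 of the nuclear tRNAs lie at 42% or more in every species, and C48 of the chloroplast tRNA is above 0% in T. durum alone.

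The threshold of the study was 20%. By it, 5 of 7 Glu sites with a value were methylated in A. thaliana (83% of all listed sites in that species), 5 of 7 in B. rapa (82.6%), 7 of 7 in T. durum (93.2%), 2 of 4 in C. taxifolia (73.1%), 3 of 5 in N. oculata (74.1%) and 3 of 4 in G. biloba (87.9%). Among nuclear Glu sites alone it was 23 of 27 values over the 6 species, beside 89.9% of the values at all nuclear listed sites. The 4 below the threshold were all at C48 with a value of 0%, namely Glu(CTC) in A. thaliana, B. rapa and N. oculata and Glu(TTC) in C. taxifolia.

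The gap between C49 and C48 was compared over species, with 1 value per species as the mean of its nuclear Glu isodecoders. C49 exceeded C48 by 82.5 percentage points in A. thaliana, 83.5 in B. rapa, 43.5 in T. durum, 64 in C. taxifolia, 89 in N. oculata and 72 in G. biloba. The mean difference was 72.4 ± 16.8 points (SD, n = 6 species; exact sign-flip permutation test, two-sided, p = 0.0312, the smallest that 6 species allow, adjusted p = 0.0391 over 5 such tests). C49 was therefore the higher site in 6 of 6 species. The species share ancestry and are not replicates of a condition. All 5 contrasts tested over species were chosen with the values known, so each p describes these 6 species only. Leaving out any species gave a mean of 69.1 to 78.2 points and p = 0.0625 in the exact test, the smallest that 5 species allow.

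C50 was slightly below C49 in the land plants and further below it in the algae, by the mean of the isodecoders. C50 minus C49 was -1.17 points in A. thaliana, -2.5 in B. rapa, -0.5 in T. durum and -1 in G. biloba, but -22 in both C. taxifolia and N. oculata. The mean was -8.19 ± 10.7 points (SD, n = 6 species; exact sign-flip permutation test, two-sided, p = 0.0312, adjusted p = 0.0391), with C50 the lower site in 6 of 6 species for the mean of the isodecoders. Among the single isodecoders, Glu(TTC) of T. durum went the other way, with C50 2 points above C49. Leaving out either C. taxifolia or N. oculata moved the mean to -5.43 points, with p = 0.0625 in the exact test. In the land plants the step was small, and no replicate spread is at hand against which to set it. Each alga had 1 library and 1 isodecoder, Glu(TTC) in C. taxifolia and Glu(CTC) in N. oculata. Nuclear Gly(GCC) did not have this order. Its C50 minus C49 was -1 in C. taxifolia and 0 in N. oculata, where both sites were at 13%. It was -3 in A. thaliana, -11 in B. rapa, 0 in T. durum and -10 in G. biloba. A small step in the land plants was also present in Asp(GTC), at -1 in A. thaliana, B. rapa and T. durum and -3 in G. biloba. Asp(GTC) was at 0 in N. oculata and had no C50 value in C. taxifolia. Gly(TCC) was at -0.667 in A. thaliana, -4 in B. rapa, 1 in T. durum and 0 in G. biloba.

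Both nuclear isodecoders had values in T. durum, B. rapa and A. thaliana only. An exact sign-flip test over 3 species cannot go below p = 0.25, so their values are given side by side without a test. At C48, Glu(TTC) stood 23 points above Glu(CTC) in A. thaliana and 21 points above it in B. rapa, and both were at 40% in T. durum. At C49 the isodecoders were within 2 points of each other in A. thaliana and B. rapa, whereas in T. durum Glu(CTC) was 25 points higher. At C50 they were again within 1 point in A. thaliana and B. rapa, and Glu(CTC) was 20 points higher in T. durum.

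Among nuclear tRNAs with a listed site, glutamate tRNAs stood at the low end at C48 and within the range of the others at C49. A C48 below 20% in every species is not in the list, so the ranks are among sites that reached 20% somewhere and not among all nuclear tRNAs. C48 of Glu(CTC) was below every listed nuclear C48 outside the Glu family with a value in each of its 5 species. In A. thaliana it was 0% against a median of 84.5% for 16 other tRNAs, whose lowest value was 13%, and in T. durum it was 40% against a median of 87% and a lowest value of 66% for 15 others. C48 of Glu(TTC) was above 1 of 16 others in A. thaliana and 2 of 17 in B. rapa, below all 15 in T. durum, and at 0% with 2 of 10 others in C. taxifolia. At C49, Glu(CTC) was above 11 of 13 others in A. thaliana, 7 of 10 in B. rapa, 9 of 11 in T. durum, 3 of 6 in N. oculata and 5 of 6 in G. biloba. Glu(TTC) was above 9 of 13 in A. thaliana, 8 of 10 in B. rapa, 4 of 11 in T. durum and 1 of 6 in C. taxifolia.

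**Figure D3:**
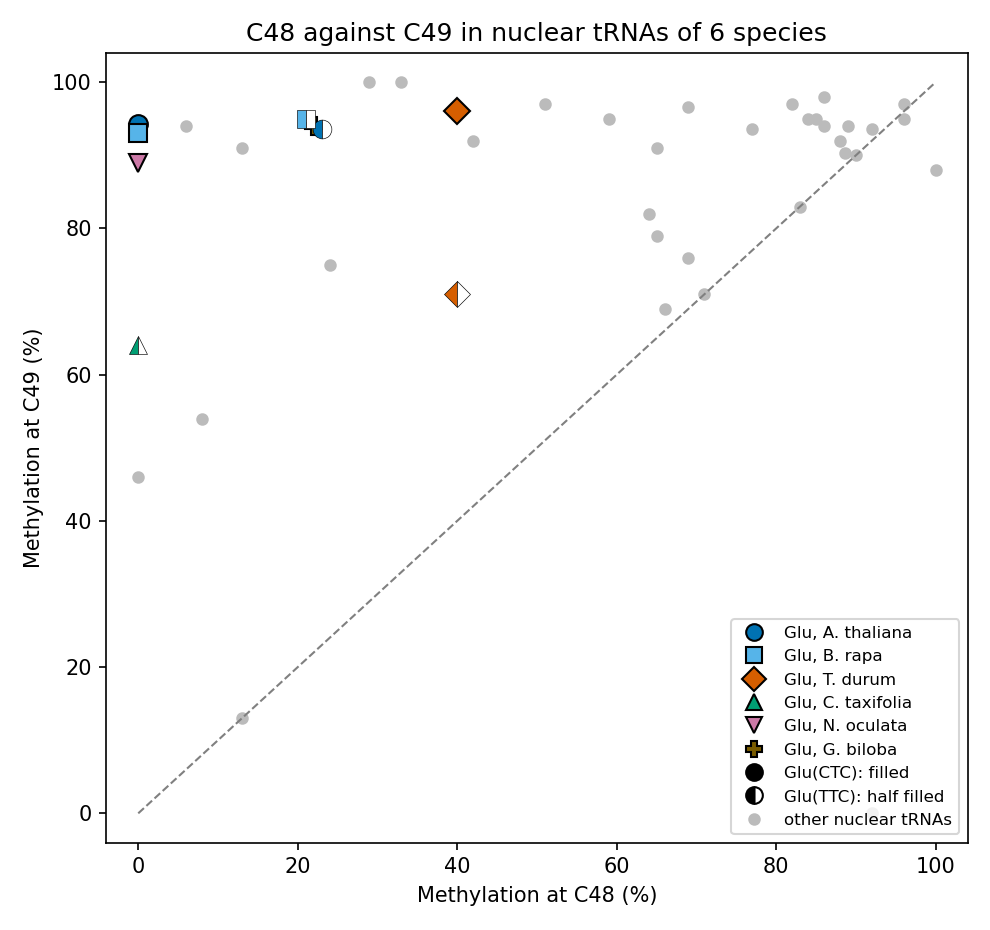
Methylation at C49 against C48 (%) for each nuclear tRNA and species with a value at both sites. Coloured symbols are the Glu isodecoders, grey points are the other nuclear tRNAs, and the dashed line marks equal values. All 9 Glu points lie far above the line, at a C48 of 40% or less.

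Asp(GTC), the nearest relative in sequence, and Gly(GCC), which also has C48, C49 and C50, served as comparisons because both had C48 and C49 values in all 6 species. The gap between C49 and C48 in Asp(GTC) was 27.7 points in A. thaliana, 46 in B. rapa, 15 in T. durum, 51 in C. taxifolia, 18 in N. oculata and 36 in G. biloba. The gap of the glutamate tRNAs was larger by 40.1 ± 20.3 points on average (SD, n = 6 species; exact sign-flip permutation test, two-sided, p = 0.0312, adjusted p = 0.0391), and larger in 6 of 6 species, from 13 points in C. taxifolia to 71 in N. oculata.

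In Gly(GCC) the gap was 1.67 points in A. thaliana, 4 in B. rapa, 46 in C. taxifolia and 0 in T. durum, N. oculata and G. biloba. The glutamate gap was larger by 63.8 ± 27.4 points (SD, n = 6 species; exact sign-flip permutation test, two-sided, p = 0.0312, adjusted p = 0.0391), from 18 points in C. taxifolia to 89 in N. oculata. In N. oculata Gly(GCC) was low at both sites, at 13% each, so its gap of 0 was not one of high values. Both comparisons use the same Glu values.

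**Figure D4:**
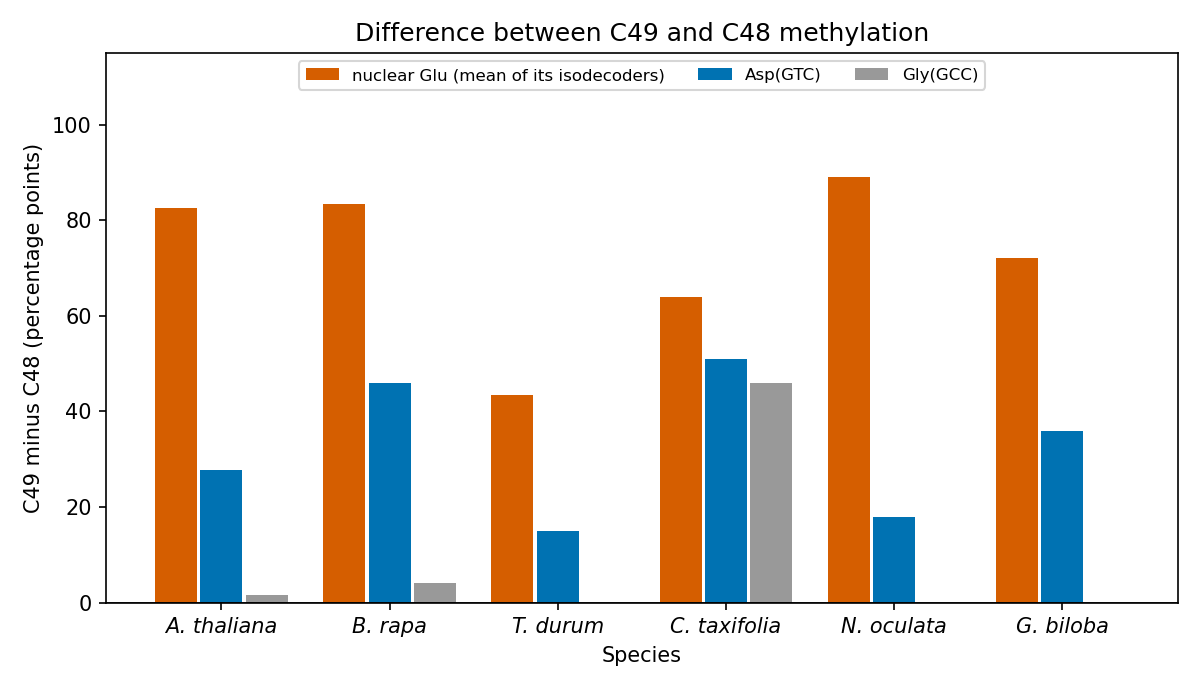
C49 minus C48 methylation (percentage points) in each species for nuclear Glu, as the mean of its isodecoders, and for Asp(GTC) and Gly(GCC); no bar means a difference of 0. The Glu bar is the tallest in every species, and its lead is smallest in C. taxifolia, at 64 against 51 and 46.

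Among nuclear tRNAs with values at both listed sites, those with a gap above the lowest Glu gap of their species were His(GTG) in A. thaliana (78 points, with C48 at 13% and C49 at 91%) and Gln(TTG) in C. taxifolia (88 points, with C48 at 6% and C49 at 94%). In N. oculata, G. biloba, T. durum and B. rapa no other nuclear tRNA had a gap above the lowest Glu value. Neither tRNA was above the lowest Glu gap of another species in which it had values. The gap of His(GTG) was 26 points in B. rapa, 14 in G. biloba and 11 in T. durum. That of Gln(TTG) in the other species ranged from -92 in A. thaliana to 67 in N. oculata, where the Glu gap was 89.

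The chloroplast Glu(TTC) was methylated at C48 in T. durum alone, the species through which the site entered the list. The value was 90% there and 0% in A. thaliana, B. rapa, C. taxifolia, N. oculata and G. biloba. Against nuclear Glu the mean difference at C48 was -1 ± 25.4 points (nuclear minus chloroplast, SD, n = 6 species; exact sign-flip permutation test, two-sided, p = 1), with differences from -50 in T. durum to 22 in G. biloba. T. durum decided that mean. Without it the nuclear form was 8.8 points higher, with p = 0.25 in the exact test. Every remaining chloroplast value was 0%, so the nuclear form could not be lower there. With 2 of the differences at 0, the p could not go below 0.25. The site was listed through T. durum, so neither form of the test decides between nuclear and chloroplast C48. The nuclear form here is the mean of its isodecoders. By that mean the chloroplast tRNA was above the nuclear form in 1 species and below it in 3. It was equal to it at 0% in 2, C. taxifolia and N. oculata. In A. thaliana and B. rapa the nuclear mean came from Glu(TTC), at 23% and 21%. Glu(CTC) was at 0% in both, equal to the chloroplast tRNA.

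Of the 8 listed sites of organellar or mixed origin, T. durum had a value at 4 and was at 20% or more at 3, the chloroplast Glu(TTC) C48, chloroplast Cys(GCA) C49 (89%) and C49 of the Leu(TAG) shared by nucleus and chloroplast (92%). At each of these the other species with a value were at 0%, so these sites were listed through T. durum. Over all its listed sites with a value, 93.2% were at 20% or more. A. thaliana, B. rapa, C. taxifolia and G. biloba had no organellar site at the threshold. Whether the T. durum reads at these sites came from chloroplast transcripts or from like sequences elsewhere in its genome was not tested, and 1 library supplied them all.

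The mixed-origin Glu(TTC) had 1 listed site, position 39 in the anticodon stem. N. oculata had a cytosine there, methylated at 38%, and each of the other 5 species had G. N. oculata was at 20% or more at 5 of 7 organellar or mixed-origin sites with a value, beside 74.1% of all its listed sites with a value. At each of the 5 it was the only such species, so these sites were listed through N. oculata. Chloroplast Met-e(CAT) position 32 and mitochondrial Arg(TCT) position 48 had no value in any other species. The sites at 20% or more also included position 38 of the Asp(GTC) shared by all 3 genomes, at 36%, where the other 5 species had A. The reads of N. oculata were aligned to the A. thaliana consensus for the mixed-origin Glu(TTC), and no sequence of the alga is at hand to set beside it.

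The chloroplast gene lay in a tight group of tRNA genes. trnE (ATCG00250, C:30466-30538) was 59 bases from ATCG00240, a Tyr(GTA) gene, 591 bases from ATCG00230, an Asp(GTC) gene, and 830 bases from ATCG00260, a Thr(GGT) gene on the other side. In land plants trnE, trnY and trnD are known as a group of genes read as 1 transcript. The levels of these tRNAs differed: the chloroplast Glu(TTC) was at 4307 RPM, the Tyr(GTA) sequence shared with the nucleus at 1453 RPM, the Asp(GTC) sequence shared by all 3 genomes at 1113 RPM and Thr(GGT) at 9.23 RPM. Reads of this Tyr(GTA) and Asp(GTC) cannot be assigned to the chloroplast copy alone.

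Both genes of the mixed-origin Glu(TTC) lay among the same tRNA genes. They were ATMG00800 at M:227615-227686 in the mitochondrial genome and AT2G07752 at 2:3303244-3303315 on chromosome 2, where a large copy of the mitochondrial genome is known to lie. Within 50000 bases there were 6 other tRNA genes around ATMG00800 and 9 around AT2G07752, and 4 isodecoders were found around both, in opposite coordinate order. Tyr(GTA)1 was 37 bases from the mitochondrial gene and 38 bases from the nuclear one. Trp(CCA) followed at 22393 and 22307 bases on the other side, Gln(TTG) at 26818 and 26732, and Asp(GTC) at 47416 and 47338, so that no gap differed by more than 86 bases.

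The neighbours were not all the same. Ser(GCT) lay 418 bases from ATMG00800 and was among the abundant mitochondrial sequences, at 7281 RPM. On the same side of AT2G07752 a nuclear gene listed as Ser(GCT)1, AT2G07754, lay 469 bases away with a length of 38 bases and was listed at 0 RPM. Of the 9 chromosome 2 neighbours 4 were listed as nuclear alone, and of all 19 mixed-origin genes on nuclear chromosomes 17 lay on chromosome 2. The 3 reads of the mixed-origin Glu(TTC) cannot be divided between its genes.

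**Figure D5:**
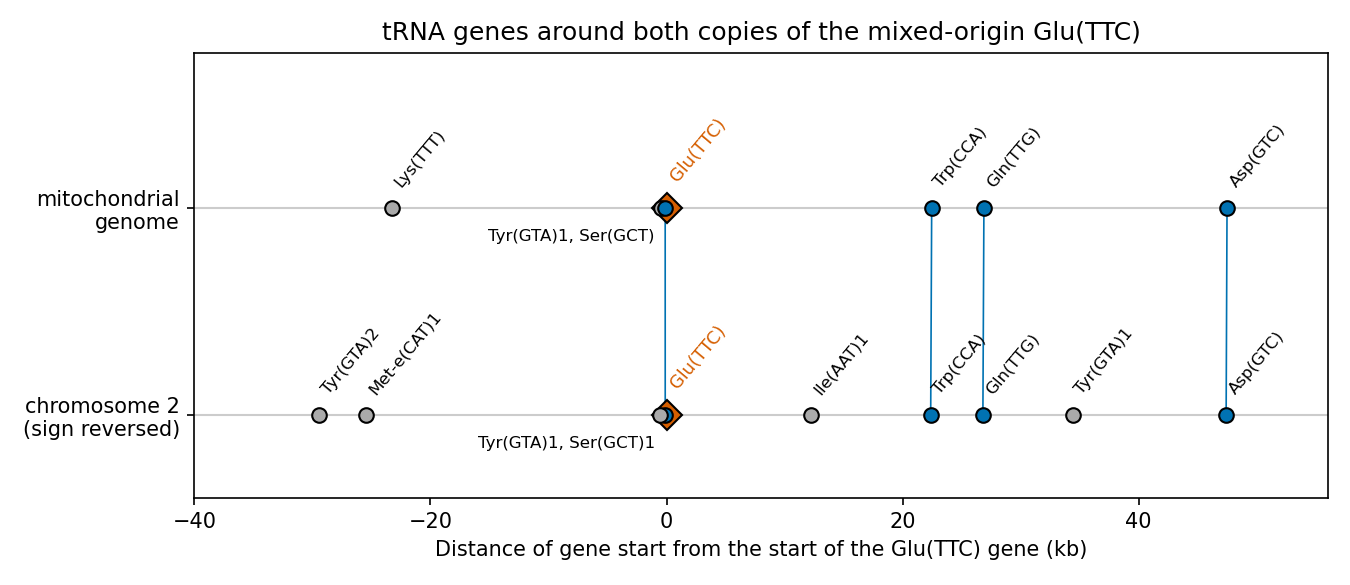
Positions of listed tRNA genes within 50000 bases of both Glu(TTC) genes of mixed origin (orange diamonds), as distance in kb from the start of the Glu(TTC) gene, with the sign reversed for chromosome 2. Blue points joined by lines are isodecoders found around both genes, grey points are the others, and the lines are almost upright because no gap differed by more than 86 bases.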

How the data were processed

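RBS-seq and RNA-seq of gel purified RNA made up 14 libraries of 6 species. The authors trimmed and aligned reads in CLC Genomics Workbench (version not given in the sources used here). Abundances were deposited in RPM for 1 A. thaliana library against 100 consensus sequences. Methylation was deposited as percent, the cytosine share of reads at sites with at least 5 reads, with A. thaliana averaged over 3 libraries. RNA-seq of the remaining species was not analysed here.

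Reads were recovered from RPM steps within 0.005 RPM. tRNA positions were counted from the anticodon and the T loop, since the mixed-origin consensus starts 1 base before position 1. Identities are from global alignments (match 1, gap opening -2; Biopython 1.88). The 5 tests over species were exact sign-flip permutation tests with Benjamini-Hochberg adjustment, and functions were tested on simulated data (Python 3.11.15, NumPy 2.4.6, SciPy 1.17.1, Matplotlib 3.10.9). All Glu isodecoders, sites and loci were named, and of other tRNAs those compared at C48 and C49, the organellar sites and the nearest genes. Alternatives were other thresholds, each isodecoder alone, each species left out, other sums, pseudocounts and filters. The tRNA family to describe, the comparisons and the tests were chosen with earlier results of these data known.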

Additional observations from a re-analysis of the deposited data

Results flagged for a closer look

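Over the 7 Glu sites with values in 4 or more species, a species far from the others was sought by Dixon's test. At C50 of nuclear Glu(CTC), N. oculata was at 67% while the other 4 species lay between 91% and 93%; chance flags about 1 in 20 groups. At C48 of the chloroplast Glu(TTC), T. durum was at 90% while the other 5 species were at 0%. A site is listed only where at least 1 species reaches 20%, so with 5 values at 0% the distance of the sixth followed from the listing, and the value is given as a description.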

How the results depend on the processing

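With Glu(CTC) alone, over 5 species, the mean differences were 80.9 points for C49 minus C48, -5.87 for C50 minus C49, 52.3 against Asp(GTC) and 79.7 against Gly(GCC), each with p = 0.0625 in the exact test. With Glu(TTC) alone, over 4 species, they were 59.9, -6, 25 and 47 points, with p = 0.375 in the exact test for C50 minus C49 and p = 0.125 for the others. These designs cannot go below 0.0625 and 0.125, so they cannot pass the threshold. For C50 minus C49 with Glu(TTC) alone the p lay above that limit, since T. durum had the opposite sign, at 2 points. Leaving out each species gave 69.1 to 78.2, -9.73 to -5.43, 33.97 to 45.6 and 58.8 to 72.97 points in the same order, and -5.6 to 8.8 for nuclear minus chloroplast C48, where leaving out T. durum turned the sign to 8.8. The share of nuclear RPM was 6.50% with mixed-origin sequences counted as nuclear, and the Glu(CTC) to Glu(TTC) ratio was 1.90 per gene. The mean log2 level of the nuclear Glu isodecoders stood 6.95 above the median of the other nuclear isodecoders on the log2(RPM + 1) scale, 7.39 with a pseudocount of 0.1 and 6.57 with a filter at 1 RPM. Thresholds of 10%, 30% and 40% moved no species' count by more than 1 site. No paired analysis was possible because the methylation column of A. thaliana is a mean and the other groups have 1 library each, so that replicate numbers pair no libraries; the tests over species do pair values within each species.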
